A study of Phelipanche ramosa with 8 samples.

Results

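Abscisic acid and ethylene are plant hormones that act through short chains of receptors, kinases, phosphatases and ubiquitin ligases, at the end of which transcription factors switch response genes on or off. In Arabidopsis, abscisic acid keeps seeds dormant and switches on dehydration-response genes as water is lost, whereas ethylene is made in ripening, wounded or flooded tissue and acts through membrane proteins of the endoplasmic reticulum. The 5 contigs described here are the *Phelipanche ramosa* contigs Pram_03507, Pram_00174, Pram_00035, Pram_03701 and Pram_00052, which the hormone sheet of the study names RD22, KEG, PRT6, XLG1 and EIN2 after their best Arabidopsis match. They were chosen by these names and make up 5 of the 52543 contigs that had a sense probe on the array. The sheet itself was drawn by the study from contigs it called differential, these arrays among its data, so the choice is not independent of the values below. RD22 is a dehydration-response gene, and the other 4 are components of hormone signalling.

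*P. ramosa* is a holoparasitic weed that fixes to host roots, such as those of oilseed rape (*Brassica napus*), with an organ called the haustorium. The arrays asked which transcripts change when germinated seeds are given host root exudates, which induce an early haustorium-like swelling. The exudate group held wild-type *P. ramosa* seeds that, once germinated, spent 12 h in root exudates of *B. napus*, which the series design calls crude and the treatment protocol calls diluted. The control group held wild-type germinated seeds kept for 12 h in incubation medium, and the seeds of both groups, 4 days of age per the labels, had first been conditioned for 7 days at 21 °C in the dark and germinated for 4 days with the synthetic strigolactone *rac*-GR24. There were 4 exudate and 4 control samples on 4 arrays of 1 slide, with 1 sample of each group per array. The exudate sample was labelled with Cy3 on arrays 1 and 2 and with Cy5 on arrays 3 and 4. The labels describe samples grown independently, whereas the methods describe 2 biological replicates in a dye-switch design, so that the p-values may measure in part a technical spread.

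Whole germinated seeds were extracted, so the values are not those of the root tip alone, where the haustorium forms. The paper saw no early haustorial structures at any time on seeds treated for 12 h and then kept in buffer. On seeds treated for longer it reported them at a time point after 12 h, so the samples came before any visible haustorium. Fewer cells of a type cannot be told apart from less RNA per cell. As a check of the tissue, 6 contigs for seed storage cupins were well above background on all 4 control arrays, and 2 of them on all 4 arrays in both groups. All 6 had mean log2 ratios below 0, exudate over control, between −2.23 and −1.17, and 4 of them were not well above background on an exudate array. Sense probes well above background made up 37.5% to 65.9% of contigs in the exudate samples and 60.4% to 69.3% in the control samples, with the exudate sample of array 3 the lowest. A contig was tested with limma when all 4 samples of one group or the other had its probe well above background, which left 30641 sense contigs, all 5 contigs described here included. A contig was counted as a DEG when the Benjamini-Hochberg adjusted p was under 0.05 and the fold change, exudate over control, was at least 1.5 or at most 0.75. By this rule 17.9% of tested contigs were DEGs, 5.12% higher and 12.8% lower in exudate. On a log scale the limit of 0.75 is less strict than that of 1.5, so these shares are not taken at equal limits.

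RD22 was a DEG, lower in exudate-treated seeds, and none of the 4 signalling contigs passed the test. The RD22 call did not hold in all settings, as given below. RD22 entered the test through the control samples alone, as did KEG and EIN2. Each was well above background on 4 control arrays and on 3 exudate arrays. RD22 was lower in exudate on each of the 4 arrays, to 0.611 of the control level. KEG, PRT6, XLG1 and EIN2 had mean log2 ratios between 0.09 and 0.45, all above 0, with adjusted p between 0.154 and 0.768. Leaving out 1 array moved the mean between 0.02 and 0.21 for KEG, 0.06 and 0.51 for PRT6, 0.32 and 0.65 for XLG1, and 0.28 and 0.46 for EIN2. The 5 contigs thus held 1 DEG, and no more is read from this count beside the 17.9% of all tested contigs.

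RD22 (Pram_03507) is named for its response to desiccation. In Arabidopsis it encodes a secreted BURP-domain protein whose transcript accumulates after drought and abscisic acid treatment. The normalized log2 intensity of RD22 was 8.70, 8.46, 7.71 and 8.35 in the exudate samples of arrays 1 to 4, and 9.56, 9.34, 8.35 and 8.83 in the control samples. The sample sets overlapped, because the control sample of array 3 lay below the exudate samples of arrays 1 and 2 and beside that of array 4, yet on each array the exudate sample was the dimmer one. The levels averaged 8.31 ± 0.43 in exudate and 9.02 ± 0.54 in control (SD, n = 4 each). Overlap held for all 5 contigs. It was also the common case over all tested contigs, of which 19.7% had levels that did not overlap between groups, so nothing is read from it. Before normalization the median spot signal of RD22 was 406, 467, 190.5 and 381.5 in the exudate samples and 991, 831, 359 and 643 in the control samples. Neither RD22 spot was well above background in the exudate sample of array 3, whereas both spots were in every other sample.

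The log2 ratio of RD22 was −0.85, −0.87, −0.64 and −0.47 on arrays 1 to 4. All were below 0, and the weakest was that of array 4. The mean was −0.71 ± 0.19 (SD, n = 4), with a limma 95% interval of −1.11 to −0.31 and an adjusted p of 0.0230. Of the tested contigs, 10.2% had a lower ratio than RD22. As the median ratio of the tested contigs was itself −0.14, RD22 lay 0.57 below it. The ratios of all 6 seed storage contigs were lower than that of RD22, and their part in the RD22 value was not tested. A ratio of the same sign on all 4 arrays, which RD22 and EIN2 shared, was found in 40.3% of tested contigs.

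The RD22 call was kept in 1 of the 4 fits that left out a replicate, although the ratio changed little. The limma adjusted p was 0.129 without replicate 1, 0.0697 without replicate 2, 0.0533 without replicate 3 and 0.0408 without replicate 4, with mean log2 ratios between −0.79 and −0.66. When the 2 samples of an array were not treated as a pair, the limma adjusted p was 0.148. With dye-swapped arrays averaged to 2 values, as 2 biological replicates would require, it was 0.0222 or 0.0423, depending on which arrays were averaged. On the arrays with exudate in Cy3 the mean RD22 ratio was −0.86, and on those with exudate in Cy5 it was −0.56.

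**Figure D1:**
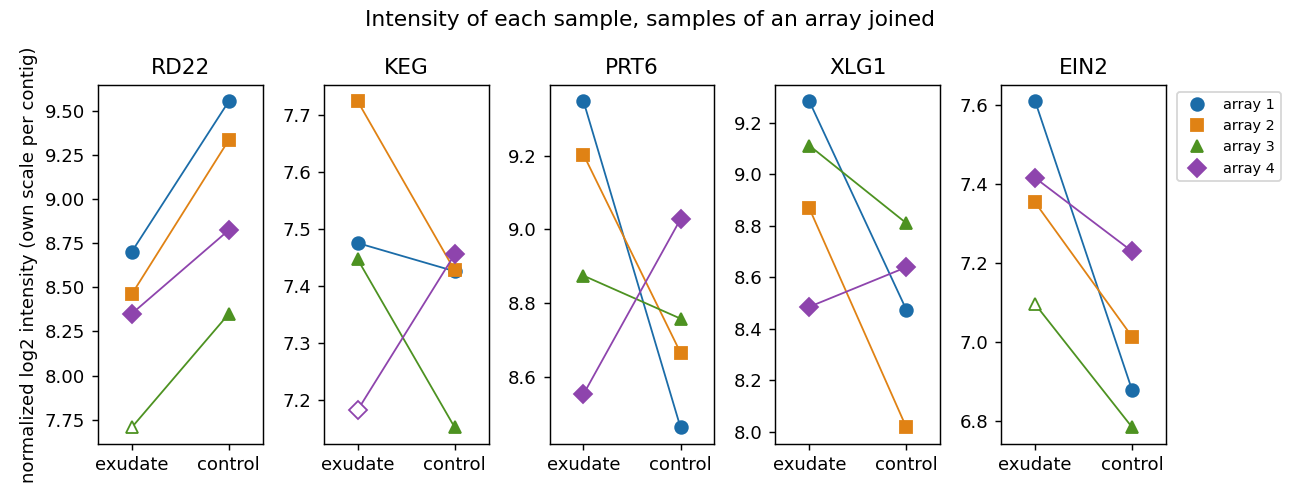
Normalized log2 intensity (y axis, its own scale in each panel) of RD22, KEG, PRT6, XLG1 and EIN2 in the exudate and control samples (x axis) of arrays 1 to 4, with the 2 samples of an array joined by a line and open points where not all spots were well above background. All 4 RD22 lines are higher at the control end, all 4 EIN2 lines are higher at the exudate end, and the lines of array 4 for KEG, PRT6 and XLG1 slope against those of the other arrays.

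Of the signalling contigs, KEG (Pram_00174) lay nearest to no difference. KEG of Arabidopsis is a large ubiquitin ligase with a kinase domain and ankyrin repeats that keeps abscisic acid signalling low by removing the transcription factor ABI5. The log2 intensity of KEG was 7.48, 7.72, 7.45 and 7.18 in the exudate samples and 7.43, 7.43, 7.15 and 7.46 in the control samples. The sets overlapped, with the exudate sample of array 2 the brightest and the control sample of array 3 the dimmest. In the exudate sample of array 4, 1 of the 2 KEG spots was not well above background. The log2 ratios were 0.05, 0.30, 0.29 and −0.27, with a mean of 0.09 ± 0.27 (SD, n = 4), a limma 95% interval of −0.32 to 0.50 and an adjusted p of 0.768. This interval held neither the fold of 1.5 nor that of 0.75, but it belongs to this setting alone. The mean KEG ratio was 0.23 with loess on sense spots alone and 0.002 with median centring. KEG was also dim, at 1.31 times background in the exudate sample of array 3, so a change of that size is not excluded.

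PRT6 (Pram_00035) varied most between arrays. PRT6 of Arabidopsis is a ubiquitin ligase of the N-degron pathway that targets ethylene response factors when oxygen is present, and seeds without it germinate poorly on abscisic acid. The log2 intensity of PRT6 was 9.35, 9.20, 8.87 and 8.55 in the exudate samples and 8.46, 8.67, 8.76 and 9.03 in the control samples. The 2 extremes of the exudate set were those of arrays 1 and 4, and array 4 alone had a brighter control sample. The log2 ratios were 0.89, 0.54, 0.12 and −0.48, with a mean of 0.27 ± 0.59 (SD, n = 4), a limma 95% interval of −0.23 to 0.76 and an adjusted p of 0.443. By dye, the mean PRT6 ratio was 0.71 on the arrays with exudate in Cy3 and −0.18 on those with exudate in Cy5, where dye and the pair of arrays cannot be told apart. With median centring in place of loess, which moved the median of the tested contigs to −0.41, the PRT6 ratios were 0.73, 0.68, −0.83 and −0.99, split by dye, and their mean was −0.11.

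A second contig that the sheet names PRT6, Pram_14442, was well above background on 2 exudate arrays and on 0 control arrays and was not tested. Whether the 2 contigs are parts of 1 gene was not tested.

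XLG1 (Pram_03701) varied nearly as much between arrays as PRT6. XLG1 of Arabidopsis is one of the extra-large proteins with a G-alpha-like domain, which act in hormone and stress responses of seedlings. The log2 intensity of XLG1 was 9.28, 8.87, 9.11 and 8.48 in the exudate samples and 8.47, 8.02, 8.81 and 8.64 in the control samples. The control sample was the brighter one on array 4 only. The log2 ratios were 0.81, 0.85, 0.30 and −0.15, with a mean of 0.45 ± 0.48 (SD, n = 4), a limma 95% interval of −0.01 to 0.92 and an adjusted p of 0.154. The mean was 0.83 on the arrays with exudate in Cy3 and 0.07 on those with exudate in Cy5, so that, as for PRT6, the values above 0.5 came from arrays 1 and 2. With median centring the XLG1 ratios were 0.65, 0.99, −0.68 and −0.65, with a mean of 0.08.

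EIN2 (Pram_00052) had a ratio of the same sign on every array, the only signalling contig that did. EIN2 of Arabidopsis is the membrane protein through which the ethylene signal passes, held inactive by the kinase CTR1 until ethylene binds its receptors. The log2 intensity of EIN2 was 7.61, 7.35, 7.10 and 7.42 in the exudate samples and 6.88, 7.01, 6.78 and 7.23 in the control samples. The sets overlapped only through the exudate sample of array 3, in which neither spot was well above background, and the control sample of array 4. The log2 ratios were 0.73, 0.34, 0.31 and 0.19, with a mean of 0.39 ± 0.24 (SD, n = 4), a limma 95% interval of −0.01 to 0.80 and an adjusted p of 0.157. EIN2 was thus higher in exudate on 4 of 4 arrays and did not pass the test, and with median centring its ratio on array 4 was −0.01. The mean of EIN2 was below that of XLG1 here but above it with median centring (0.36 for EIN2 against 0.08 for XLG1), with the scanner's processed signal (0.60 against 0.50) and without replicate 2 (0.41 against 0.32).

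**Figure D2:**
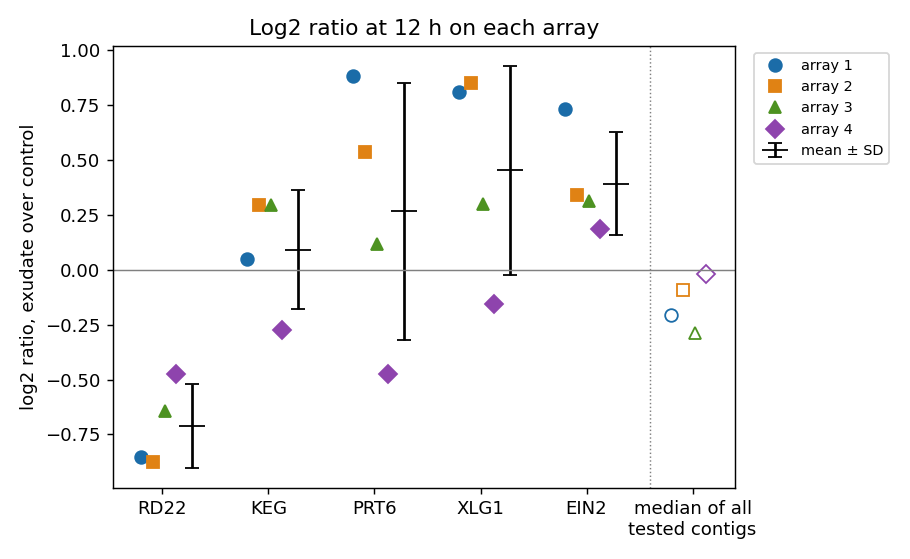
Log2 ratio of exudate over control (y axis) of the 5 contigs and, as open symbols, the median of all tested sense contigs (x axis), with 1 symbol per array and bars for the mean ± SD over 4 arrays. RD22 lies below 0 on all arrays, EIN2 above 0 on all arrays, and array 4 is the lowest of the 4 arrays for KEG, PRT6, XLG1 and EIN2.

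Each of the 4 signalling contigs had its lowest ratio on array 4, whereas on array 1 they ranged between 0.05 for KEG and 0.89 for PRT6. Their mean log2 ratio was 0.62, 0.51, 0.26 and −0.18 on arrays 1 to 4, while the median of all tested sense contigs was −0.21, −0.09, −0.29 and −0.02. On array 4 the signalling contigs were therefore at their lowest although the median of all contigs was at its highest. Relative to the median of each array, the mean ratio was 0.24 for KEG, 0.42 for PRT6, 0.60 for XLG1 and 0.54 for EIN2, and −0.56 for RD22.

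To set RD22 against the signalling contigs, the difference of their log2 ratios was taken within each array, which removes any shift common to an array. RD22 minus the mean of the 4 signalling contigs was −1.47, −1.38, −0.90 and −0.30 on arrays 1 to 4. RD22 was thus below the signalling mean on 4 of 4 arrays, with a mean of −1.01 ± 0.54 (SD, n = 4). The exact two-sided sign-flip test gave p = 0.125, which is the smallest value that 4 arrays allow, so this design cannot reach 0.05. This test does not share its spread across contigs, in contrast to limma.

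By contig, the mean difference was −1.16 ± 0.66 for RD22 minus XLG1, −1.10 ± 0.39 for RD22 minus EIN2, −0.98 ± 0.77 for RD22 minus PRT6 and −0.80 ± 0.42 for RD22 minus KEG (SD, n = 4 arrays). RD22 was lower than XLG1, EIN2 and KEG on 4 of 4 arrays, with an exact sign-flip p of 0.125 for each and 0.167 after Benjamini-Hochberg adjustment over the 4 pairs. Against PRT6 it was lower on 3 of 4 arrays, with an exact p of 0.25 before and after adjustment, as the ratios of RD22 and PRT6 on array 4 were −0.47 and −0.48.

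**Figure D3:**
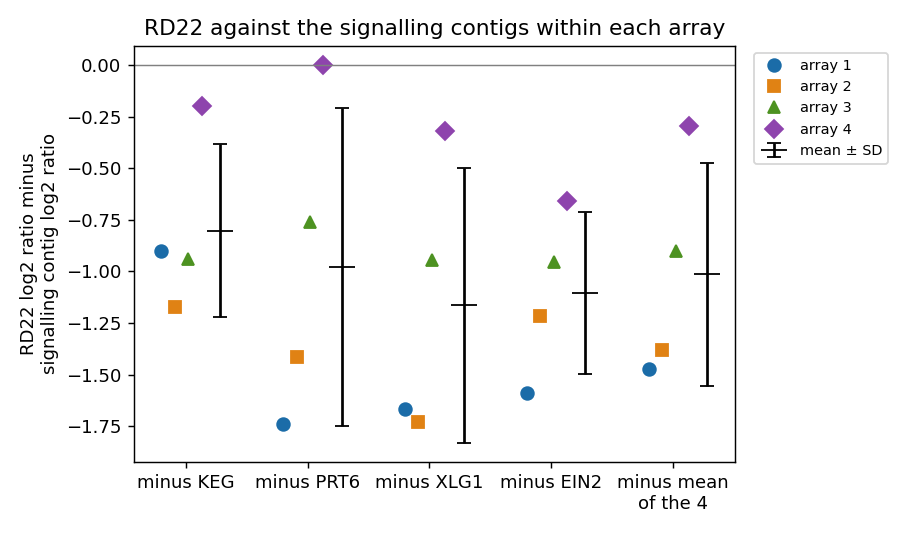
Difference between the RD22 log2 ratio and that of each signalling contig, or of their mean (x axis), within each array (y axis, log2), with bars for the mean ± SD over 4 arrays. All differences are below 0 except that against PRT6 on array 4, which lies at the 0 line, and array 4 gives the difference nearest to 0 in every column.

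The array also carries a probe for the opposite strand of each contig. Of the 5, RD22 alone had an antisense probe well above background on 4 of 4 arrays, which held in both groups. Against 2 spots for the RD22 sense probe, this antisense probe had 1 spot per array. Its log2 ratios were 0.16, −0.13, 0.08 and 0.06, with a mean of 0.04 ± 0.12 (SD, n = 4) and a limma adjusted p of 0.920 over the tested antisense probes, of which 8.59% were DEGs. Within arrays, the RD22 sense ratio minus the antisense ratio was −1.01, −0.74, −0.73 and −0.53, below 0 on 4 of 4 arrays, with a mean of −0.75 ± 0.20 (SD, n = 4) and an exact sign-flip p of 0.125, again the smallest possible. Over all tested probes, the median sense ratio minus the median antisense ratio was −0.53, −0.35, −0.88 and 0.02 on arrays 1 to 4. Less this array-wide gap, RD22 gave −0.48, −0.39, 0.15 and −0.55, below 0 on 3 of 4 arrays, with a mean of −0.32 ± 0.32 (SD, n = 4) and an exact sign-flip p of 0.25. The antisense probes of KEG and EIN2 were well above background on 0 of 4 arrays in either group, and those of PRT6 and XLG1 on 1 exudate array, array 1, and 0 control arrays, so that these 4 were not tested. Antisense medians over all tested partners were 0.33, 0.26, 0.59 and −0.04 on arrays 1 to 4.

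The hormone sheet places RD22, KEG, PRT6 and XLG1 among 27 contigs tied to abscisic acid, and EIN2 among 9 tied to ethylene. Given how the sheet was drawn, its counts are not independent evidence of a response. Of the 20 abscisic acid contigs tested, 5 were higher and 5 lower in exudate, beside 5.12% higher and 12.8% lower over all tested contigs. The median log2 ratio was 0.42, against −0.14 over all tested contigs. The 5 lower ones were RD22 and 4 contigs for the storage cupin CRA1, whose mean ratios of −2.23 to −1.92 lay well below that of RD22. CRA1 encodes a seed storage protein in Arabidopsis and, like the response gene RD22, is no component of hormone signalling. RD22 was the only lower DEG of this list that encodes no storage protein. The aquaporin contig PIP3 had a mean ratio of −0.18 and was not a DEG.

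The 5 higher abscisic acid contigs included AAO3, the aldehyde oxidase of the last step of abscisic acid synthesis in Arabidopsis, with a mean log2 ratio of 0.88, although its ratio on array 4 was −0.04. They also held the transcription factor MYB78 at 1.40, a contig for an F-box protein (Pram_36315) at 1.37, a receptor-like kinase relative (Pram_40479) at 1.44 and the nuclear transport factor contig NTF2 at 0.65. The other 10 tested contigs of the list were not DEGs, KEG, PRT6 and XLG1 among them. PP2CA, a phosphatase that holds the pathway off, had log2 ratios of −0.46, 1.01, 1.40 and −0.39 and a limma adjusted p of 0.380. CPK32, a calcium-dependent kinase, had ratios of 0.83, 1.04, 0.16 and −0.72 and a limma adjusted p of 0.411. ABO5, a pentatricopeptide repeat protein whose loss changes abscisic acid responses in Arabidopsis, had a mean ratio of 0.55 and a limma adjusted p of 0.0870. AAO1, a relative of AAO3, was well above background on 1 exudate array and 1 control array and was not tested. On array 4, where KEG, PRT6 and XLG1 were below 0, 4 of the other 7 contigs that were not DEGs were below 0 and 3 were above.

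Of the 5 ethylene contigs tested, 3 were higher and 0 were lower, beside 5.12% higher and 12.8% lower over all tested contigs, and the median log2 ratio was 0.75, against −0.14 over all tested contigs. The 3 were MYB30, a transcription factor, at 1.53, TAR2, an enzyme of auxin synthesis, at 2.00, and a basic helix-loop-helix contig (Pram_28180) at 0.75. None of the 3 is a core component of the ethylene pathway in Arabidopsis, whereas EIN2, which is one, was not a DEG. CTR1, the kinase upstream of EIN2, was well above background on 3 exudate arrays and 1 control array and was not tested. Its log2 ratios were 1.85, 0.97, 0.65 and 0.77 on arrays 1 to 4. ACS1, which makes the ethylene precursor ACC, was well above background on 2 exudate arrays and 0 control arrays. Its log2 ratios were 0.88, 0.93, 0.31 and 0.67, and the ratios of CTR1 and ACS1 rest in part on dim spots. Of these 3, only EIN2 was tested, as it passed the filter through the control samples, and its ratios also rest in part on dim spots.

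**Figure D4:**
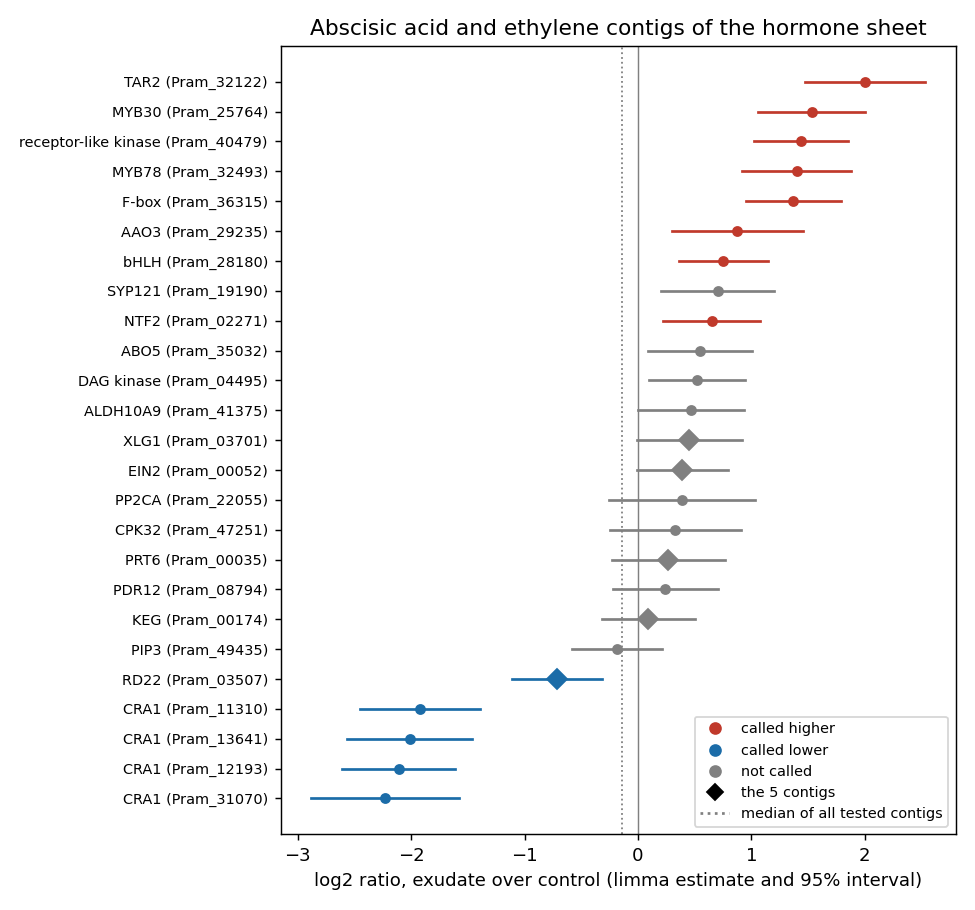
Log2 ratio of exudate over control (x axis, limma estimate with its 95% interval) of the 25 tested abscisic acid and ethylene contigs of the hormone sheet (y axis, name and contig), with DEGs coloured and the 5 contigs described here as diamonds. RD22 is the only diamond that was a DEG, at −0.71, and lies between the 4 CRA1 contigs and the contigs that did not pass the test.

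Likeness of pattern was measured among the 61 other tested contigs of the sheet as the root mean square difference of the log2 ratios over the 4 arrays. Nearest to RD22 were a putative lysine decarboxylase contig (Pram_35727) and PMDH2, a peroxisomal malate dehydrogenase, both at 0.18, with mean ratios of −0.61 and −0.83, and then PKT3, a peroxisomal thiolase, at 0.41. Nearest to XLG1 were an acyl-transferase contig (Pram_27540) at 0.19 and PRT6 at 0.25, and the same acyl-transferase contig was nearest to PRT6 at 0.13. Nearest to KEG was ILR1, which frees auxin from its conjugates, at 0.21, and nearest to EIN2 was ABCB4, an auxin transporter, at 0.16. Over 4 arrays, and with ratios that share arrays, these distances are a description only.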

How the data were processed

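Two-colour Agilent arrays of *P. ramosa* contigs were analysed, 4 exudate and 4 control samples. The authors deposited scanner output (Agilent Feature Extraction 11.5.1.1) with the median intensity, local background and quality flags of each of 180880 spots per array. The authors also deposited log2 values of the sense probes, of unstated scale and normalization, whose exudate columns 1, 2, 3 and 4 followed the scanner intensity of arrays 3, 4, 1 and 2. These were used as an alternative, and 0 columns of sample values were left unused. The submitters' processing notes name limma.

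Intensities were corrected by normexp (offset 50) and loess (span 0.3, 4 iterations, control spots without weight), where the offset draws ratios of dim spots towards 0, in R 4.3.3 with limma 3.58.1. Spots of a probe were averaged, 2 per sense probe. Ratios were turned to exudate over control and fitted with lmFit and eBayes, with Benjamini-Hochberg adjustment over 30641 sense and, separately, 16075 antisense probes well above background on all arrays of a group. Intensities of single samples came from Aquantile normalization. No probe was set against another in level, and 4 arrays limit the precision. The steps were tested on simulated data with as many probes raised as lowered and with noise independent between arrays. That test does not cover an excess of lower DEGs or arrays that share a biological replicate. Samples of an array were paired because they share it. Their deviations from the group means correlated at 0.22, 0.24, 0.75 and −0.24 on arrays 1 to 4, and the best correlation of a control sample with the exudate sample of another array was 0.30, 0.66, −0.33 and 0.19. All arrays shared 1 slide and 1 scan time. If they hold 2 biological replicates, the limma and sign-flip p-values may overstate the evidence, as they take the 4 arrays as independent.

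Named genes were the 5 contigs, the DEGs of the abscisic acid and ethylene lists, their pathway contigs PP2CA, CPK32, AAO3, AAO1, ABO5, CTR1, ACS1 and a second PRT6, and the 2 or 3 contigs nearest in pattern. The contigs and lists were chosen with earlier results of these data known. Alternatives covered background correction, normalization, filter, dye, replicate pairing, averaging of dye-swapped arrays, the deposited log2 values and leaving out each replicate.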

Additional observations from a re-analysis of the deposited data

Results flagged for a closer look

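In the 30 sets of 4 values examined for the 5 contigs and their antisense partners, 3 held a value that stood apart from the other 3 by Dixon's test, which chance alone marks in about 1 of 20 sets. The KEG control sample of array 3 had a log2 intensity of 7.15, whereas those of the other arrays lay between 7.43 and 7.46. The KEG antisense probe, never well above background, had a log2 ratio of 0.16 on array 3, where the other arrays gave 0.04 to 0.06. The XLG1 antisense probe had a log2 ratio of 1.25 on array 1, the only sample in which it was well above background being the exudate sample of that array, while the other arrays gave 0.07 to 0.20.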

How the results depend on the processing

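Of 11 other settings that could test RD22, 5 leave its log2 ratio as it is by construction and 6 change it, to between −1.04 and −0.58. RD22 was a DEG under 9 of the 11, with limma adjusted p between 0.0222 and 0.558. It lost the call at a ratio of −0.71 with no replicate block (adjusted p = 0.148) and at −0.64 with the deposited log2 values paired by replicate number (adjusted p = 0.558). That pairing joins exudate and control columns that follow different arrays. Paired by array, the deposited values kept the call at −0.64, with a limma adjusted p of 0.0247. Leaving out each replicate gave −0.79 to −0.66, with a call in 1 of 4 fits. When both channels had to be above background on all arrays, RD22, KEG and EIN2 were not tested. The number of the 5 contigs that were DEGs was 1, and 0 with that filter, with no replicate block, with the deposited values paired by replicate number, and in 3 of the 4 fits that left out a replicate (range 0 to 1). The 4 signalling contigs were DEGs in 0 of 62 alternative values (adjusted p of 0.0738 to 0.997), and 1 value changed sign, PRT6 with median centring (−0.11). RD22 minus the signalling mean was between −1.43 and −0.87 in the 6 settings that change it, 2 of which give the same value, and between −1.25 and −0.86 with a replicate left out.

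Relative to the median of the tested contigs, RD22 was at −0.57, at −0.61 with median centring, at −0.56 with loess on sense spots alone and at −0.77 with the scanner's processed signal, where that median was −0.14, −0.41, −0.02 and −0.27. Abscisic acid contigs called were 10, 0 with the deposited values paired by number and 7 to 9 with a replicate left out. Ethylene contigs called were 3, 5 with no filter on dim probes, 0 with the deposited values paired by number and 2 to 3 with a replicate left out.

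Over all sense probes, 5491 DEGs (1569 higher, 3922 lower) became 3548 with no background correction (2387 lower), 3534 with a dye covariate (2369 lower), 2359 with no replicate block (780 higher, 1579 lower) and 2266 with no filter (824 higher, 1442 lower). With dye-swapped arrays averaged to 2 values there were 6147 or 4645 DEGs, depending on which arrays were averaged. With both channels above background 2517 were lower. With median centring 335 were higher. Loess on sense spots alone gave 2364 higher and 2582 lower, so that 47.8% of DEGs were higher in place of 28.6%, and median centring gave 8.36%. The deposited values paired by number gave 0 DEGs with limma (0 higher, 0 lower), with 3854 contigs at an unadjusted p under 0.05, and 5267 when paired by array. Leaving out a replicate gave 677 to 5536 DEGs, 419 to 1478 higher and 258 to 4135 lower, the lowest counts being those without replicate 1. The cause of these shifts was not tested. Dim spots limit the ratios of RD22, KEG and EIN2, each with 1 exudate sample in which a spot was not well above background.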
